A study of Mus musculus with 8 samples.

Results

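Peaks of DC-SCRIPT, the zinc finger protein encoded by Zfp366, were described at 6 genes of antigen cross-presentation in mouse conventional dendritic cells: Wdfy4, Naaa, Sec22b, Cybb, Rab43 and Rab7b. The genes were chosen by name, with earlier results of these data known. A peak was counted for a gene when its centre lay inside that gene, or, outside all protein-coding genes, when that gene had the nearest end. By this rule the 6 genes, of 21900 protein-coding genes in all, carried 23 of the 31473 peaks listed in cDC1 and 3 of the 2776 peaks listed in cDC2. CUT&Tag, in which an antibody guides a transposase to the protein so that the DNA beside it is tagged and sequenced, was run on cells sorted from the spleens of female C57BL/6 mice. The 8 libraries comprised 2 of zfp366-/- cDC1, 3 of zfp366+/+ cDC1, 2 of zfp366-/- cDC2 and 1 of zfp366+/+ cDC2, and each was a mouse pool. The sources used here give neither the ages nor the part of Zfp366 that was deleted. No treatment of the mice is named in the labels, and spleens were digested with collagenase and DNase.

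Cross-presentation is the display on MHC class I of peptides from antigen that a cell has taken up. It lets dendritic cells prime CD8 T cells against tumours and viruses that do not infect them, and in the mouse spleen cDC1 do it best for antigen from dead cells, while cDC2 mainly prime CD4 T cells. A cytosolic route, through the proteasome, and a vacuolar route, within the endosome, have been described. Both depend on membrane traffic and on slow degradation in the phagosome.

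The peak list of each subset held 1 pooled knockout and 1 pooled wild-type tag set, so no value per library was used here and no spread between mouse pools can be given. In cDC1 the knockout set totalled 12.1 M tags and the wild-type set 35.5 M, and in cDC2 the totals were 6.83 M for knockout and 4.77 M for wild type. Peak values are normalised tags, meaning tags per peak in a set of 10000000. On this scale 3 knockout tags amount to 2.47 for cDC1 and to 4.40 for cDC2. The fold and score of a peak are the authors' own, and the fold is always wild-type over knockout tags at equal depth, so that a value above 1 means less signal in knockout cells. Every listed peak had to reach a fold of 4 and a Poisson p of 0.0001, so that knockout signal below wild-type signal was a condition for being listed and not a finding. Intervals around folds were computed here as exact (Clopper-Pearson) 95% intervals of the tag ratio. They cover counting error only, since repeated tags and the spread between pools do not enter them. CUT&Tag gives no RNA level, so the sorted cell types could not be checked against their markers. Beside the 6 genes, cDC1 peaks lay at 7 of 7 cDC1 markers, 5 of 6 cDC2 markers, 1 of 5 B cell, 4 of 5 plasmacytoid, 4 of 5 monocyte and macrophage, and 3 of 6 T and NK cell markers, while 51.3% of all protein-coding genes had such a peak. Peaks in cDC2 lay at 3 of 7 cDC1 markers, 4 of 6 cDC2 markers, 0 of 5 B cell, 1 of 5 plasmacytoid, 1 of 5 monocyte and macrophage, and 0 of 6 T and NK cell markers, while 9.53% of all had one. Their part in the results was not tested, and in a bulk pool fewer binding cells and less binding per cell cannot be told apart. In a bare pair of values for a peak, the first is the normalised knockout tags and the second the normalised wild-type tags.

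The sequence before the start of transcription is shown for the 5 genes found in a RefSeq promoter table of build GRCm38.p6, because the start was where most of them carried a peak. Rab7b was not in that table. Each line gives the 250 bases before the outermost listed start, 5′ to 3′ on the strand of the gene. Capitals mark matches to motifs searched on both strands. The PU.1-type motif was spelled GAGGAA. The AP-1 motif was spelled TGANTCA, where N is any base. The GC box was spelled GGGCGG, and the CCAAT box is spelled by its name. An ETS-IRF composite and an AP-1-IRF composite were searched as well, and no matches of different motifs overlapped in the stretches shown.
Wdfy4, chr14:33185067-33185316, minus strand: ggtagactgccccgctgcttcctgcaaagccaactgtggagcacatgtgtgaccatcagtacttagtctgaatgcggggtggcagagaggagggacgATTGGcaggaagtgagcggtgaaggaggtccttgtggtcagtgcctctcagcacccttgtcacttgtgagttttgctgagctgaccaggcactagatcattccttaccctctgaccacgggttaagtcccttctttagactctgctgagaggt
Naaa, chr5:92278182-92278431, minus strand: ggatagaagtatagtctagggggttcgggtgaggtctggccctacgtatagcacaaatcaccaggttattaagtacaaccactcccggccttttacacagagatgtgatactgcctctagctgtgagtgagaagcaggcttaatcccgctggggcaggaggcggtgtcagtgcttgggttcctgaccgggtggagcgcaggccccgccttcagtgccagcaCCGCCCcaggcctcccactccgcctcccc
Sec22b, chr3:97900977-97901226, plus strand: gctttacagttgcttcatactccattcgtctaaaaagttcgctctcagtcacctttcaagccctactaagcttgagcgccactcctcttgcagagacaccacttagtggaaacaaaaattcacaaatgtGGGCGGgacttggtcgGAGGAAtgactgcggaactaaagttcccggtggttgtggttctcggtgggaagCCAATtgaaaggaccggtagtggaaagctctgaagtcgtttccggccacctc
Rab43, chr6:87812165-87812414, minus strand: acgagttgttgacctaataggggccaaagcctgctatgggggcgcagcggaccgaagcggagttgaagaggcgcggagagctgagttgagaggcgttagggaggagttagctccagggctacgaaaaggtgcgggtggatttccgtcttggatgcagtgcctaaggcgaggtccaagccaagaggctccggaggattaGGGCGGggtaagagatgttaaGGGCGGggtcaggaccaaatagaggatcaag
Cybb, chrX:9469325-9469574, minus strand: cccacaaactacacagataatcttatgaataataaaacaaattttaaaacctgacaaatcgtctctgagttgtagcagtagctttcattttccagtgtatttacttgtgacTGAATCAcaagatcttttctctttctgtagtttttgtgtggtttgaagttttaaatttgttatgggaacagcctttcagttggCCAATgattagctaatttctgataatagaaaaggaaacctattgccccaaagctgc
The last 69 bases of the Naaa stretch lay inside a cDC1 peak, and its GC box was among them. The first 2 bases of the Wdfy4 stretch and the last base of the Sec22b stretch touched a peak, and the Rab43 stretch ended 34 bases from one. The Cybb stretch lay 4263 bases from the nearest cDC1 peak, had 34% G and C and held 1 CpG, against 50% to 59.2% and 5 to 15 CpG in the other stretches. The medians over 21263 stretches of 17492 protein-coding genes were 55.6% and 10 CpG. A GC box stood in 3 of the 5 stretches (Naaa, Sec22b and Rab43) and in 42.6% of all stretches, and a CCAAT box in 3 of 5 (Wdfy4, Sec22b and Cybb) and in 35.4%. The AP-1 letters were found before Cybb alone among the 5 and in 6.13% of all stretches, and the PU.1-type letters before Sec22b and in 22.2%. Neither composite, present in 2.16% and 0.0611% of all stretches, matched any of the 5. These counts take only the outermost of the 4 starts listed for Rab43. A PU.1-type match stood 12 bases before its start at 87809757. Before its start at 87811779 there were 5 GC boxes, 1 of them inside a cDC1 peak that covered 89 of those bases. These are matches of letters and not sites of binding.

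**Figure D1:**
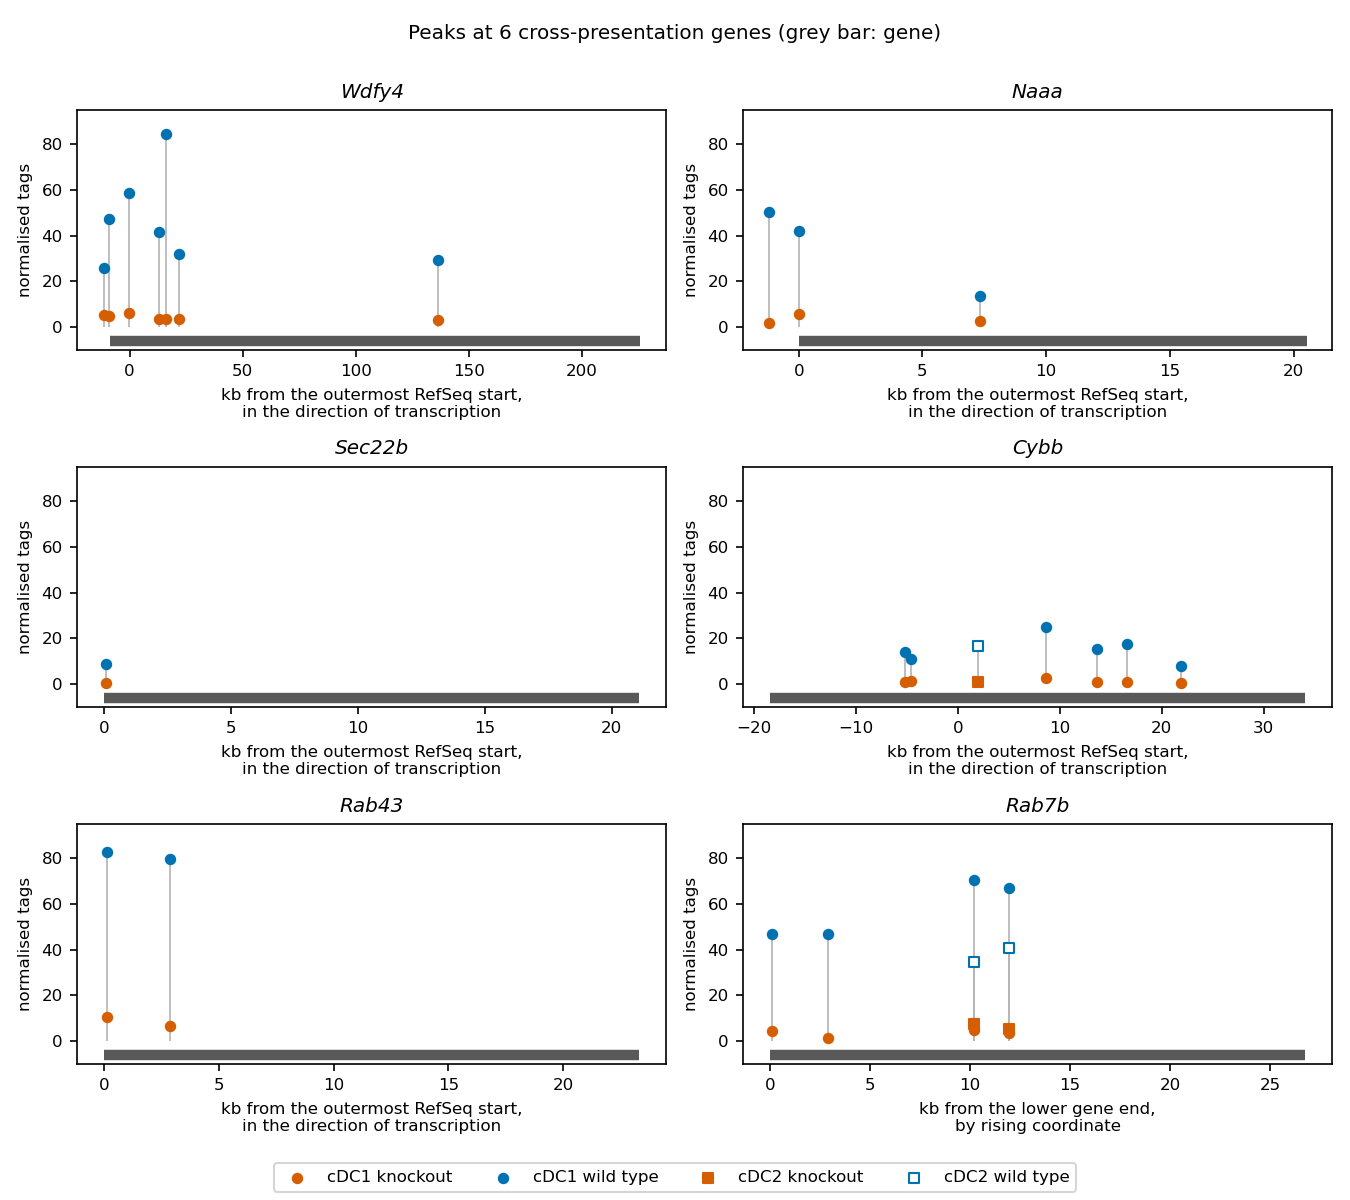
Normalised tags of every listed peak at the 6 genes (vertical axis) against distance in kb from the outermost RefSeq start along transcription, or from the lower gene end for Rab7b; orange marks knockout and blue wild type, circles cDC1 and squares cDC2, and the grey bar is the RefSeq gene. Wdfy4, Naaa, Sec22b and Rab43 have a cDC1 peak within 1 kb of a start, the cDC1 peak nearest the Cybb start is 4.61 kb away, and cDC2 peaks appear at Cybb and Rab7b only.

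All 6 genes carried a cDC1 peak, against 51.3% of all protein-coding genes. Gene length had a median of 25.04 kb over the 6, against 17.1 kb over all. Since the 6 were chosen with earlier results of these data known, the shares given here are description only and were not tested. Wdfy4 carried 7 peaks, Cybb 6, Rab7b 4, Naaa 3, Rab43 2 and Sec22b 1. At least 7 peaks were found at 4.46% of all protein-coding genes, at least 6 at 6.11%, at least 4 at 12.0%, at least 3 at 18.1% and at least 2 at 29.5%. Of the 23 peaks, 20 lay inside the gene and 3 beyond a gene end. The share of all cDC1 peaks inside a gene was not worked out, so these counts are description only. Over the 23 peaks the median was 3.30 normalised knockout tags and 41.7 normalised wild-type tags, against medians of 1.65 and 15.5 over all 31473 cDC1 peaks. Knockout and wild-type medians of the members were both above those of the list, and their median fold, 12.1, stood beside 10.2 for the list. By score, 12 of the 23 ranked within the highest 10% of the cDC1 list and 18 above its median of 45.5. The 12 comprised 4 of 7 at Wdfy4, 4 of 4 at Rab7b, 2 of 2 at Rab43 and 2 of 3 at Naaa, with none at Cybb or Sec22b. Scores above the median were found for 3 of 6 peaks at Cybb and for 2 of 3 at Naaa, and the Sec22b peak was below it.

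Wdfy4 encodes a BEACH domain protein that mouse cDC1 require to cross-present antigen from dead cells. The gene, RefSeq gene 545030, lies at chr14:32959547-33193855 on the minus strand and spans 234.3 kb, although the promoter table lists its start at 33185066, inside that span. Its 7 cDC1 peaks summed to 29.2 normalised knockout tags and 319.1 normalised wild-type tags. The highest lay 16.1 kb past the listed start at chr14:33168863-33169053, with 3.30 normalised tags in knockout and 84.4 in wild type. Its fold was 25.6 (95% interval 9.89 to 94.5), and by score it ranked 128 of 31473, within the highest 0.407%. The peak at the start, chr14:33185315-33185505, was centred 344 bases upstream and held 6.18 knockout and 58.6 wild-type normalised tags (fold 9.48, 95% interval 4.43 to 20.9). It stood on more knockout signal than most: 4.72% of all cDC1 peaks had as many knockout tags. Between these, 13.0 kb past the start, chr14:33172013-33172203 held 3.30 knockout and 41.7 wild-type tags (fold 12.7, 95% interval 4.84 to 47.1). Another peak, 22.0 kb past it at chr14:33163013-33163203, held 3.30 and 32.1 tags. Upstream, chr14:33194092-33194282 lay 332 bases beyond the gene's upper end and 9121 bases from the listed start, with 4.94 knockout and 47.2 wild-type tags (fold 9.57, 95% interval 4.31 to 26.5). The next, chr14:33196398-33196588, was the weakest in fold of all 23, with 5.36 and 25.9 tags (fold 4.84, 95% interval 2.10 to 11.5). The remaining peak, chr14:33048544-33048734, stood apart, 114.5 kb from its neighbour and 136 kb past the start, with 2.88 and 29.2 tags.

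Rab43 and Rab7b encode small GTPases that direct vesicle traffic. Rab43 has been linked to cross-presentation of cell-associated antigen in mice, and Rab7b acts at late endosomes and the trans-Golgi network. Rab43 (RefSeq gene 69834, chr6:87788853-87812164, minus strand) had only 2 cDC1 peaks, and both were among the strongest of the list. The peak at its start, chr6:87811941-87812131, held 10.3 normalised knockout tags and 82.6 wild-type tags and ranked 165 by score. It was centred 62 bases into the transcript that starts at 87812098, 1 of 4 starts listed. Its knockout signal was the highest of the 23, reached by 0.839% of all cDC1 peaks, and its fold was 8.03 (95% interval 4.44 to 14.7). The other peak, 2.74 kb away at chr6:87809203-87809393, lay 459 bases past another listed start, at 87809757. It held 6.59 knockout and 79.6 wild-type normalised tags, for a fold of 12.1 (95% interval 6.06 to 28.3), and ranked 390.

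Rab7b (RefSeq gene 226421, chr1:131688681-131715443) carried 4 cDC1 peaks, all inside the gene, which amounts to 14.9 peaks per 100 kb of gene, against 2.13 to 11.4 at the other 5 genes. The highest, 10.2 kb from the lower gene end at chr1:131698783-131698973, held 4.94 normalised knockout tags and 70.6 wild-type tags (fold 14.3, 95% interval 6.46 to 39.2). Its neighbour, 1.78 kb on at chr1:131700559-131700749, held 3.30 and 66.8 tags (fold 20.3, 95% interval 7.85 to 75.3) and had the higher score. Another pair stood at the lower end. There chr1:131688673-131688863, centred 87 bases inside the gene, held 4.53 knockout and 46.9 wild-type tags (fold 10.3, 95% interval 4.29 to 26.3). The peak at chr1:131691472-131691662 held 1.24 knockout and 46.7 wild-type tags, with the highest fold of the 23 peaks, 37.9 (95% interval 7.79 to 237.9). These intervals overlap, and a difference between the 4 folds was not tested.

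Naaa encodes a lysosomal amidase that breaks down fatty acid ethanolamides, and its transcript is a marker of mouse cDC1. The gene (RefSeq gene 67111, chr5:92257660-92278181, minus strand) had 3 cDC1 peaks. The highest lay outside the gene, 1.21 kb upstream of the start at chr5:92279299-92279489, and held 1.65 normalised knockout tags and 50.5 wild-type tags. Its fold of 30.8 (95% interval 8.40 to 256.3) was the highest of the 3. The peak over the start itself, chr5:92278060-92278250, which covers the end of the sequence shown for Naaa, had more knockout signal, 5.77 tags, beside 41.9 wild-type tags (fold 7.25, 95% interval 3.45 to 18.4). Inside the gene, chr5:92270765-92270955 held 2.47 and 13.3 tags (fold 5.35, 95% interval 1.73 to 26.9). The upstream peak and the peak over the start lay 1.24 kb apart. The intervals of their folds overlap, and a difference between these folds was not tested.

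Cybb encodes gp91phox, the catalytic subunit of the phagocyte NADPH oxidase, whose superoxide keeps the phagosome from turning acidic. The gene (RefSeq gene 13058, chrX:9435252-9487766, minus strand) carried 6 cDC1 peaks, all inside the RefSeq gene, with sums of 6.59 normalised knockout tags and 89.8 wild-type tags. The highest, 8.62 kb past the start at chrX:9460609-9460799, held 2.47 and 24.7 tags (fold 9.97, 95% interval 3.32 to 49.6). Next came chrX:9452612-9452802 with 0.824 and 17.5 tags, and chrX:9455625-9455815 with 0.824 and 15.2. A pair 559 bases apart stood upstream of the listed start, chrX:9474396-9474586 with 0.824 and 13.8 tags and chrX:9473837-9474027 with 1.24 and 11.0. The weakest, chrX:9447307-9447497, held 7.61 wild-type tags, and its knockout value was the lowest in the list, which also stands for no tag. With counting error taken into account, its fold was 2.34 or more (exact lower 95% limit). Knockout counts of 1 to 3 tags leave the other folds wide, for example 21.2 at chrX:9452612-9452802 with an interval of 3.67 to 851.4. No cDC1 peak lay within 1 kb of the Cybb start, whereas 4 of the 5 genes with a listed start had one, against 31.8% of 17492 protein-coding genes in the promoter table.

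Sec22b encodes a SNARE protein of the compartment between endoplasmic reticulum and Golgi, which was reported to bring such membrane to phagosomes and whose need in cross-presentation is debated. The gene (RefSeq gene 20333, chr3:97901227-97922318, plus strand) had a single cDC1 peak, at chr3:97901226-97901416 directly on the start. Wild-type signal there was 8.88 normalised tags, from 31.5 tags, and the knockout value was again the lowest in the list, below the 2.47 normalised tags that 3 tags would give. Its fold had an exact lower 95% limit of 2.80. By score, 29.0, this peak ranked 24976 of 31473, lower than every cDC1 peak of the other 5 genes except the weakest of Cybb.

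**Figure D2:**
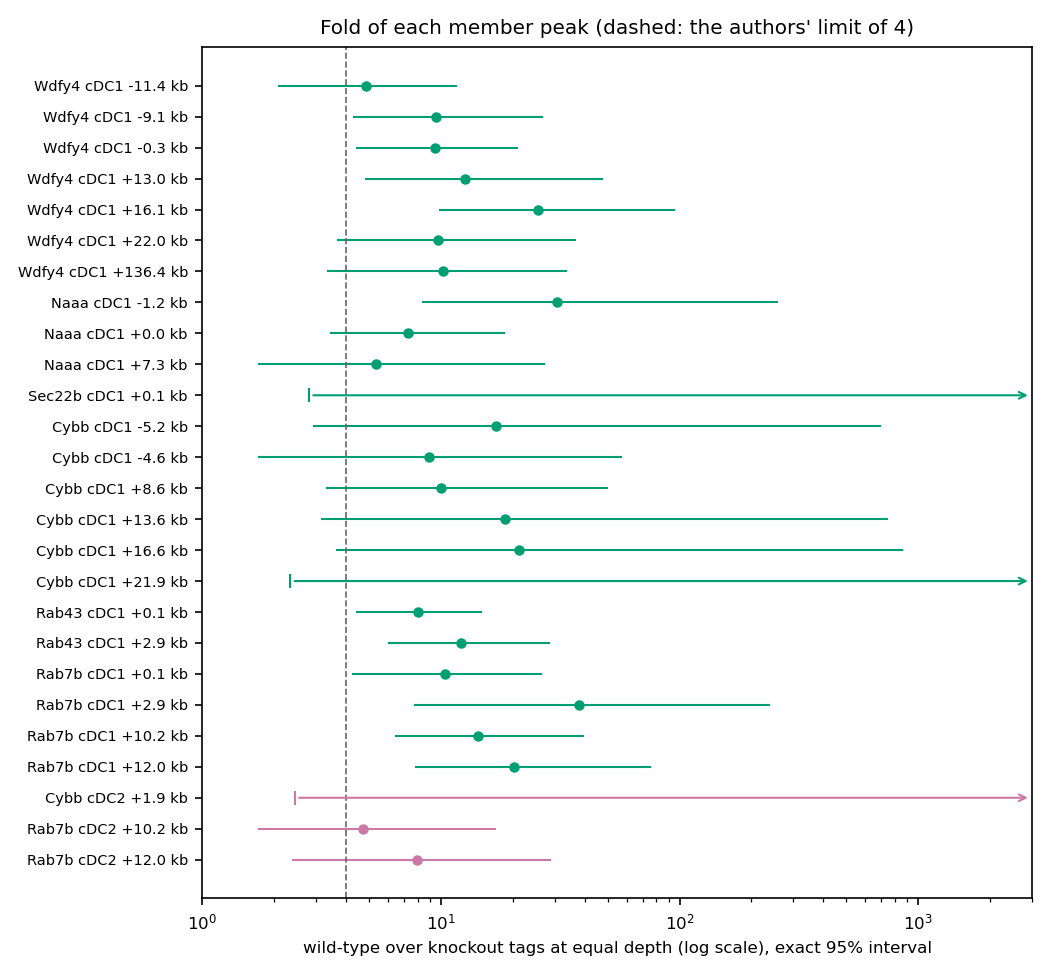
Wild-type over knockout tags at equal depth (horizontal log axis) for each of the 23 cDC1 peaks in green and the 3 cDC2 peaks in pink, labelled by distance in kb from the outermost start (lower gene end for Rab7b), with exact 95% intervals of the tag counts. Arrows start at the exact lower 95% limit where the knockout value was the lowest in the list, and the folds drawn as points run from 4.72 at Rab7b in cDC2 to 37.9 at Rab7b in cDC1.

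Peaks in cDC2 were found at 2 of the 6 genes, Rab7b with 2 and Cybb with 1, while 9.53% of all protein-coding genes had any. Wdfy4, Naaa, Sec22b and Rab43 had none. A single wild-type pool with 1 tag set stands behind this list, so no replicate check of it exists. Both Rab7b peaks matched cDC1 peaks, so that 2 of the 23 cDC1 peaks overlapped a cDC2 peak, against 5.61% of all cDC1 peaks. At chr1:131698778-131698968 the cDC2 peak held 7.33 normalised knockout tags and 34.6 wild-type tags (fold 4.72, 95% interval 1.72 to 16.8), and it shared 186 bases with the cDC1 peak of 70.6 wild-type tags. At chr1:131700559-131700749, exactly the place of the cDC1 peak, it held 5.13 and 40.8 tags (fold 7.96, 95% interval 2.39 to 28.8). Wild-type signal in cDC1 was 2.04 times that in cDC2 at the first region (exact 95% interval 1.21 to 3.45) and 1.64 times at the second (1.01 to 2.67). These intervals too cover counting error only, with 16.5 and 19.5 wild-type tags in cDC2, and a difference between the subsets was not tested. Over all 1767 regions listed in both subsets the ratio had a median of 1.09 and quartiles of 0.793 and 1.53, and 10.3% and 21.3% of regions had a ratio at least as large as those at Rab7b. The peaks at the lower end of Rab7b were not listed in cDC2.

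The Cybb peak of cDC2 lay at a place with no cDC1 peak. It stood at chrX:9467284-9467474, 1.95 kb past the start, with 16.8 normalised wild-type tags, from 8 tags, and the lowest knockout value of the cDC2 list. Its fold had an exact lower 95% limit of 2.44. None of the 6 cDC1 peaks of the gene was listed in cDC2, and none of the 5 genes with a listed start had a cDC2 peak within 1 kb of it, against 2.44% of all in the promoter table. With 8 wild-type tags the peak was close to the limit of 7 tags that the cDC2 list required.

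The shallower cDC2 set limits what its list can hold. Wild-type tags in cDC1 numbered 7.43 times those in cDC2, so the tags of each cDC1 peak were scaled to the cDC2 depth by proportion. They were set against the cDC2 limits of 7 tags and, over knockout, a fold of 4 and a Poisson p of 0.0001. The limits over the surrounding 10 kb, which the list also required, were not applied, so the counts could be lower with them. After scaling, 18 of the 23 peaks still met the limits applied, against 48.5% of all cDC1 peaks. All 7 of Wdfy4, all 4 of Rab7b, both of Rab43, 2 of 3 at Naaa and 3 of 6 at Cybb did, and that of Sec22b did not. The highest Wdfy4 peak scaled to 40.3 wild-type tags, and those of Rab43 to 39.4 and 38.0, while the Sec22b peak scaled to 4.24, a value below the limit around which counts vary. Of the 18 peaks, 2 were listed in cDC2, which is close to the 9.75% of all such cDC1 peaks that overlapped a cDC2 peak. That share covers cDC1 peaks of all strengths, and none was worked out for peaks as strong as the highest ones here. What the absence of Wdfy4, Rab43 and Naaa from the cDC2 list means was not tested, nor was a difference between the subsets. With the tag densities of regions listed in both subsets applied as well, 15 of 23 met the limits, against 27.2% of all, including 6 of 7 at Wdfy4, 2 of 2 at Rab43 and 1 of 3 at Naaa.

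**Figure D3:**
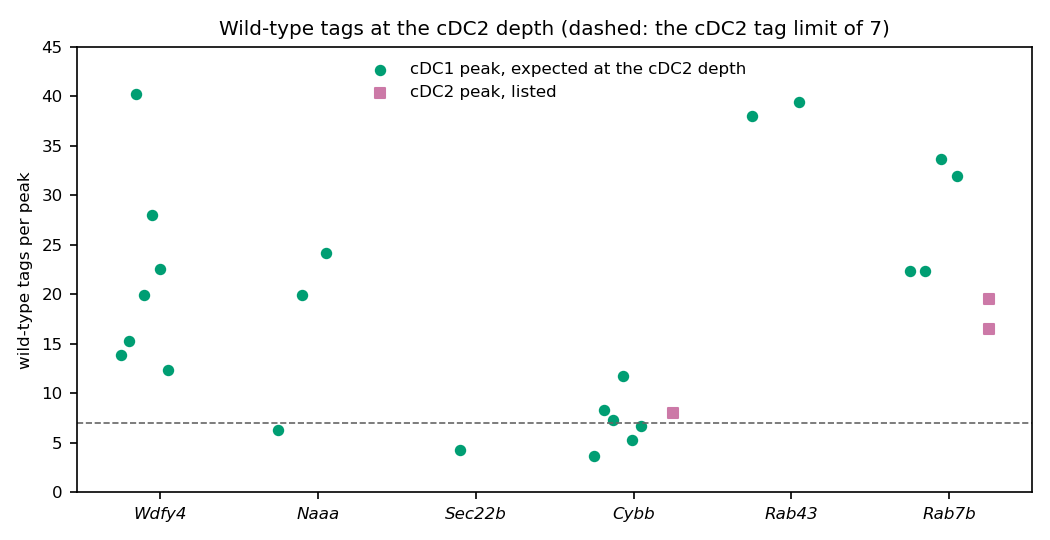
Wild-type tags per peak (vertical axis, unscaled tags at the cDC2 depth) for the 6 genes: green circles are the 23 cDC1 peaks scaled by proportion to the cDC2 depth, pink squares the 3 peaks listed in cDC2, and the dashed line the cDC2 limit of 7 tags. All cDC1 peaks of Wdfy4, Rab43 and Rab7b scale to above the line, the Sec22b peak falls below it at 4.24 tags, and those of Cybb lie between 3.63 and 11.8 tags.

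Other genes that act in the same steps were counted from 8 lists of 86 genes in all. A cDC1 peak was found at 70 of them (81.4%, beside 51.3% of protein-coding genes overall) and a cDC2 peak at 20 (23.3%, beside 9.53%). The lists were chosen with earlier results of these data known and were counted without a test, so the shares are description only. Gene lengths differed between them, with a median of 22.5 kb over the 86. Each gene is described by its highest-scoring peak in each subset. The cDC1 and cDC2 peaks of a gene can therefore lie at different places. They did not overlap at Vav1, Rab39, Rab7, Cd36, Wdfy2, Nsmaf and Sec61b.

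Among partners of Cybb in the superoxide complex and its control, 8 of 8 genes had a cDC1 peak and 3 of 8 a cDC2 peak. Ncf4, the p40phox subunit, had the highest-scoring peak, with 3.30 normalised knockout and 50.3 wild-type tags in cDC1 (fold 15.2, 95% interval 5.84 to 56.5). The same gene held 7.33 and 41.9 tags in cDC2. Vav1, an exchange factor for Rac, held 2.06 knockout and 48.9 wild-type tags in cDC1, and Rac2, the GTPase of the complex, 6.18 and 39.9. In cDC2 Vav1 held 3.66 knockout and 44.0 wild-type tags, and Ncf1, the p47phox subunit, 20.9 wild-type tags beside the lowest knockout value. Cyba, which encodes p22phox, the membrane partner of gp91phox, had 1 cDC1 peak of 5.77 knockout and 35.7 wild-type tags and none in cDC2. The best Cybb peak, with a score of 66.5, ranked below those of Ncf4, Vav1, Rac2 and Cyba, with scores of 86 to 126.5. It ranked above that of Ncf1 and others of the list, with scores of 50 to 58.

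Of 11 other Rab genes, 9 had a cDC1 peak and 3 a cDC2 peak. Rab39 led in cDC1 with 7.0 knockout and 67.8 wild-type tags (fold 9.69, 95% interval 4.75 to 20.3), followed by Rab5a, a GTPase of early endosomes, with 8.24 and 47.5. Tied behind them were Rab27a, which has been linked to delivery of the oxidase to phagosomes, with 4.53 and 44.4, and Rab7, the late endosome GTPase, with 4.53 and 41.3 at a peak 19.1 kb beyond the gene. In cDC2 Rab14 held 4.40 knockout and 49.2 wild-type tags, Rab39 9.52 and 39.8, and Rab7 2.93 and 23.0 at a peak 18.8 kb beyond the gene. Rab3b and Rab34 had no peak in either subset. The best cDC1 scores of Rab43 and Rab7b, 166.5 and 136.5, were above the 132 of Rab39. For membrane fusion, 5 of 8 genes, SNAREs and Syt7, had a cDC1 peak and 0 of 8 a cDC2 peak. The leading genes were Stx4a, the partner of Sec22b at phagosomes, with 1.24 and 20.3 tags, Stx11 with 1.65 and 19.2, and Vamp3, a SNARE of recycling endosomes, with 0.824 and 17.6, and Stx5a, Vamp7 and Syt7 had none. The Sec22b peak, with a score of 29, ranked below the best peak of each of these 5 genes, with scores of 38.5 to 58.

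Relatives of Wdfy4 with a BEACH domain or a Wdfy name had a cDC1 peak at 9 of 9 genes and a cDC2 peak at 6 of 9, but these are long genes, with a median of 159.6 kb. Nsmaf, an adaptor of the TNF receptor, held 3.71 knockout and 67.5 wild-type tags in cDC1, Wdfy2 8.65 and 66.0, and Nbeal2, which is needed for platelet granules, 7.83 and 45.4. In cDC2 the highest were Wdfy3, a scaffold of selective autophagy, with 4.40 and 30.4 tags, Wdfy2 with 2.20 and 27.2 and Nsmaf with 4.40 and 25.1. Wdfy4 itself, whose best score of 171.5 stood above the 135 of Nsmaf in cDC1, had no cDC2 peak.

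Receptors for uptake had a cDC1 peak at 9 of 10 genes and a cDC2 peak at 4 of 10. Cd36, a scavenger receptor, held 8.65 knockout and 107.4 wild-type tags in cDC1, Fcgr1, an Fc receptor for IgG, 1.65 and 58.1 at 6.89 kb beyond the gene, and Havcr2, the TIM-3 receptor, 0.824 and 48.5. Clec9a, which senses actin of dead cells on cDC1, had 1 cDC1 peak of 2.88 and 20.6 tags and was named after its values were seen. In cDC2 Havcr2 held 7.33 and 51.3 tags, Lrp1, an endocytic receptor, 3.66 and 22.0, and Cd36 1.47 and 20.9. For protein export from the endoplasmic reticulum and its chaperones the counts were 9 of 10 in cDC1 and 2 of 10 in cDC2. Hspa8, a cytosolic chaperone, led with 4.12 and 85.0 tags, before Hsp90aa1, another, with 6.18 and 63.4 at a peak 10.6 kb beyond the gene. Hsp90ab1 had none. In cDC2 the Hsp90aa1 peak, also 10.6 kb beyond the gene, held 5.86 and 30.4 tags. Sec61b, a subunit of the translocon, held 2.06 and 48.4 tags in cDC1, but that peak lay 221.5 kb from the gene. In cDC2 its highest peak, 8.06 and 68.1 tags, lay 263.4 kb away.

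Genes that supply peptide to class I had a cDC1 peak at 10 of 16 and a cDC2 peak at 0 of 16, and these are short genes, with a median of 5.35 kb. Psme2, a subunit of the proteasome activator PA28, held 14.8 knockout and 129.8 wild-type tags (fold 8.74, 95% interval 5.47 to 14.9). Psmb9, an immunoproteasome subunit, held 4.53 and 93.6 tags at 7.72 kb beyond the gene, and Lnpep, the endosomal aminopeptidase IRAP of the vacuolar route, 2.47 and 48.9. Tap1, Tap2, Calr, B2m, H2-K1 and Psmb8 had none. Of 14 lysosomal genes, 11 had a cDC1 peak and 2 a cDC2 peak. Cst3, the protease inhibitor cystatin C, held 2.06 and 99.1 tags in cDC1, Lgmn, an asparaginyl endopeptidase, 0.824 and 38.5, and Ctss, cathepsin S, 1.24 and 23.4. The Lgmn peak lay 11.9 kb and the Ctss peak 2.92 kb beyond the gene. In cDC2 Cst3 held 12.5 and 67.0 tags and Lgmn 3.66 and 47.1, again 11.9 kb beyond the gene. Tfeb, a transcription factor of lysosomal genes that lowers cross-presentation, had 2 cDC1 peaks, the higher with 1.65 and 21.9 tags, and was named after its values were seen. Ctsl, Ifi30 and Atp6v0d2 had no peak in either subset.

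**Figure D4:**
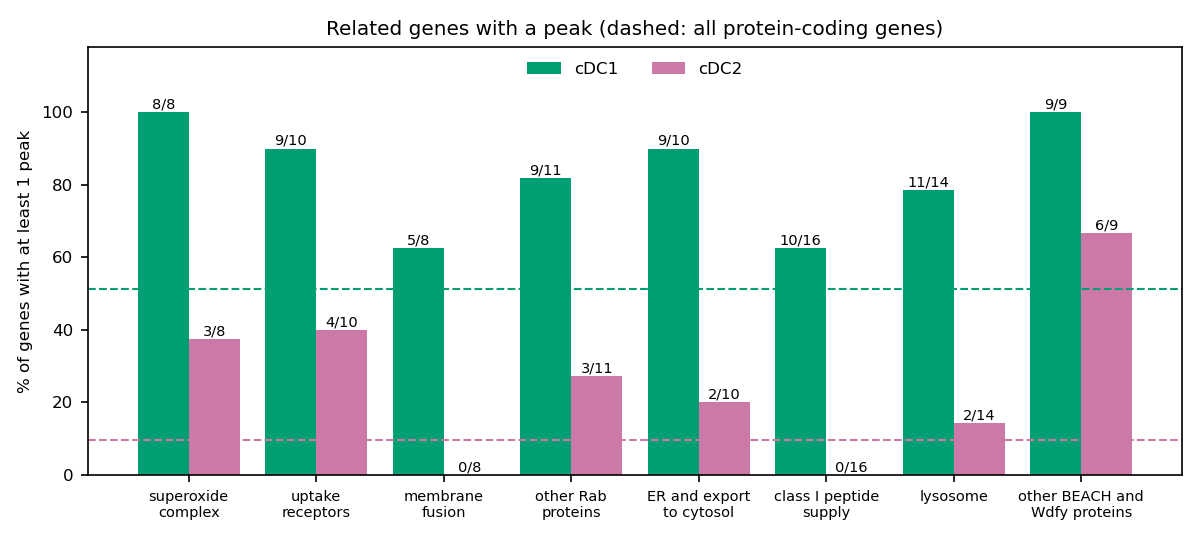
Share of genes with at least 1 peak (vertical axis, %) in each list of related genes, with green bars for cDC1 and pink bars for cDC2, the counts above the bars and dashed lines at the 51.3% and 9.53% of all protein-coding genes. The superoxide and BEACH lists reach 8 of 8 and 9 of 9 in cDC1, and the membrane fusion and class I peptide lists stand at 0 in cDC2.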

How the data were processed

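CUT&Tag libraries of DC-SCRIPT took their subset and genotype from their titles. The authors deposited 1 peak table per subset. Per the file headers, HOMER findPeaks in factor mode compared 1 wild-type with 1 knockout tag directory, with peaks of 191 bp, a false discovery rate of 0.001, a fold of at least 4 and a Poisson p of at most 0.0001 over knockout and over the surrounding 10 kb. The sources used here do not give the aligner, the handling of duplicates or the libraries behind each directory. The submitters' processing notes name HOMER, GRCm38 and mm10, names of the same assembly.

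The deposited signal is wild-type tags scaled to 10000000. The deposited fold is a ratio at equal depth, each deposited p-value is HOMER's Poisson p over tags, and the deposited score is in tags of the wild-type set. The deposited fraction of tags near each peak centre was not used. Tags given at the other set's depth were scaled back, which gave the knockout depths. The Poisson p worked out from these tags lay within 0.1 on the log10 scale of the deposited one at 96.9% of 31445 cDC1 and 100% of 2776 cDC2 peaks compared.

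Peaks were assigned with a RefSeq gene table of GRCm38.p6 in Python 3.11.15 with scipy 1.17.1. Assignment and intervals were tested on simulated data. The simulated tags did not have to pass the limits on fold and p that every listed peak had passed. How often the intervals hold the true fold of peaks so selected was therefore not tested. The tables hold no value per library, so no test between genotypes was made. The members, lists, rule for named genes and alternatives were chosen with earlier results of these data known. Named were all members and, per list and subset, up to 3 genes with the highest-scoring peak, and genes without a peak. Alternatives were a score or fold limit, the distance and genes used for assignment, the overlap and the depth scaling.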

Additional observations from a re-analysis of the deposited data

How the results depend on the processing

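Of 33 alternative values, 24 lay within 1.5 times the value reported, and 9 did not. Counting each peak within 50 kb of a gene, whatever gene was nearest, gave 48 cDC1 peaks at the 6 genes in place of 23, and 9 cDC2 peaks at 4 genes in place of 3 at 2, with 33 in place of 20 related genes. With only the 50% of cDC2 peaks of higher score, 1 of the 6 genes and 11 related genes kept a peak. With a fold of at least 8, 1 cDC2 peak at 1 gene was left, and 12 related genes. The cDC2 counts rest on few tags. No paired analysis was possible because the tables hold 1 pooled tag set per genotype, and for the same reason no replicate could be left out.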

Other observations

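Peaks close to the 6 genes but assigned to a neighbour were not counted for them. Between Ppef2, which encodes a phosphatase, and Naaa, the peak at chr5:92256714-92256904 lay 0.851 kb beyond the lower end of Naaa, with 3.71 normalised knockout tags and 47.6 wild-type tags in cDC1 (fold 12.9, 95% interval 4.86 to 36.1). Next to Rab7b, Ctse, which encodes cathepsin E, an endosomal protease, carried the nearest other peaks of both subsets. In cDC1 the Ctse peak at chr1:131679765-131679955 held 3.30 knockout and 56.8 wild-type tags, 8.82 kb from Rab7b. In cDC2 the peak at chr1:131679551-131679741 held 2.93 and 18.8 tags and did not overlap it. Near Sec22b, a peak inside the neighbouring Gm5544 lay 9.99 kb beyond the upper end of Sec22b. It held 60.8 wild-type tags in cDC1 at chr3:97932216-97932406, with the lowest knockout value of the list and an exact lower 95% limit of the fold of 19.9. The cDC2 list held the same place, at chr3:97932213-97932403, with 5.86 knockout and 28.3 wild-type tags. Within 50 kb of Cybb, no peak of either list belonged to another gene, and the nearest, at Dynlt3 in cDC1, was 204.6 kb away.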
